A study of Mus musculus with 18 samples.

Results

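The genes described here encode the coats of COPII and COPI vesicles and the ARF GTPases, cargo receptors, SNAREs and tethers that work with them. They were chosen by name: 47 genes of the traffic between the endoplasmic reticulum and the Golgi, and all 47 were found among the 15596 gene symbols of the count table. By role, 14 belong to the COPII coat and its exit sites, 9 to the COPI coat, 4 to the ARF GTPases, 13 to the cargo receptors and 7 to the SNAREs and tethers. RNA sequencing of bead-captured mRNA had been carried out on MC38, a mouse colon adenocarcinoma line, in culture and as tumours. The question was how MC38 cells, and C57BL/6 wild-type mice implanted with them, differ when Mbtps1 is depleted.

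The groups were Mbtps1 KD MC38 cells (knockdown cells, n = 3), Mbtps1 WT MC38 cells (control cells, n = 3), tumours of Mbtps1 KD MC38 cells in C57BL/6 wild-type mice (knockdown tumours, n = 5) and tumours of Mbtps1 WT MC38 cells in the same kind of mice (control tumours, n = 5). The sample labels call the depletion KD, while the series' design text speaks of a knockout for the cultured cells and a knockdown for the tumours. The depletion reagent, the number of clones, the mice's age and sex and the time of growth were not given in the sources used here. The labels do not say whether the replicates of a group came from different dishes or mice. The p-values below therefore reflect only how far these libraries scatter, and that scatter could be technical.

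COPII coats form at exit sites of the endoplasmic reticulum. The GTPase SAR1 recruits the SEC23 and SEC24 inner layer, SEC24 and membrane receptors gather cargo, and SEC13 and SEC31 build the outer cage. COPI coats, recruited by ARF GTPases, carry escaped resident proteins and receptors back, and tethers and SNAREs dock and fuse the vesicles. Mbtps1 encodes site-1 protease, a Golgi enzyme that cuts membrane-bound transcription factors, among them ATF6 and members of the CREB3 family. In mouse cartilage the family member CREB3L2 is known for control of Sec23a.

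Promoters of members were searched for 4 sequences, on both strands, in RefSeq windows that run from 250 bases before to 50 bases after each transcription start (GRCm38.p6). TGACGT is the core letters known from CREB and ATF sites, and TGACGTGG, which contains it, is the longer form known from ATF6 and CREB3 family sites. The other searches were for the endoplasmic reticulum stress elements ERSE (CCAAT, 9 bases of any kind, CCACG) and ERSE-II (ATTGG, any base, CCACG). A window was found for 42 of the 47 members, and the others were Arcn1, Kdelr2, Tmed2, Tmed7 and Lman1. The 6 members with TGACGTGG are printed here because Sec23a and Kdelr3, which had the deepest falls of all members in cultured cells, are among them. Sec23b, the close paralogue of Sec23a that did not pass in either setting, is shown for contrast and holds the shorter TGACGT. Capitals mark the matched letters, read 5′ to 3′ on the gene's own strand, where CCACGTCA is the same element on the opposite strand.
Sec23a (chr12:59011988-59012027, minus strand): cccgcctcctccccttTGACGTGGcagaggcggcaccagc
Sec24d (chr3:123267454-123267493, plus strand): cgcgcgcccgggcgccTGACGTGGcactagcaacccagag
Kdelr3 (chr15:79516362-79516401, plus strand): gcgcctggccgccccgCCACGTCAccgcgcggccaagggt
Copb1 (chr7:114254685-114254724, minus strand): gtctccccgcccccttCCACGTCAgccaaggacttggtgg
Copb2 (chr9:98563708-98563747, plus strand): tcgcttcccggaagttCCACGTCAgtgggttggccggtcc
Arf1 (chr11:59228223-59228262, minus strand): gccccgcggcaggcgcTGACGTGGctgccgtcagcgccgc
Sec23b (chr2:144556204-144556241, plus strand): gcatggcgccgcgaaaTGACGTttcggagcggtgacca

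TGACGTGG was held by 6 of the 42 members (14.3%), by 116 of the 11853 genes of the table with a window (0.979%) and by 222 of all 32851 windows (0.676%). TGACGT was held by 16 of the 42 members (38.1%), 12.3% of the table's genes and 7.51% of all windows. ERSE and ERSE-II were each found in 0 of the 42, and in 0.203% and 0.0844% of the table's genes. Both are too rare for 0 of 42 to be read as a lack. The first base of the element lay 84 bases before the start in Arf1, 30 in Kdelr3, 28 in Copb1, 26 in Sec24d and 7 in Copb2, and at base 7 after it in Sec23a. Arf1 has a second annotated start, and the same element lay at base 22 after that one. A match is a run of letters and was not tested as a binding site.

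Total counts were 14931689 to 15515405 in knockdown cells, 14240353 to 15155599 in control cells, 22257519 to 32655739 in knockdown tumours and 19630410 to 28316572 in control tumours. Every member passed the filter on low counts in every comparison, and the lowest count of a member in any library was 188, so depth did not limit their detection. Mbtps1 stood at 34.8 to 37.0 CPM (the count scaled to a common library total) in knockdown cells, against 118 to 135 CPM in control cells, and at 41.4 to 57.1 CPM in knockdown tumours, against 110 to 130 CPM in control tumours. Mitochondrial mRNA took 2.88% to 7.07% of counts in knockdown tumours, against 1.5% to 2.78% in control tumours, and knockdown tumour libraries 3 (7.07%) and 5 (5.77%) stood apart. Tumour libraries also hold RNA of host cells. Summed over 15 leukocyte markers the level was 1570 to 2750 CPM in knockdown tumours and 1400 to 2880 CPM in control tumours. Taken singly, 7 of the 14 leukocyte markers tested were higher in knockdown tumours and 0 lower, beside 20.1% and 18.3% of all genes (edgeR, adjusted p under 0.05). Over 10 fibroblast and mural markers the summed level was 2590 to 3390 CPM in knockdown tumours, below 3430 to 4380 CPM in control tumours. These markers did not move together: singly 5 of the 10 were lower and 2 higher, with log2 fold changes of -1.21 to 0.91. Over 8 endothelial markers the sum was 97.5 to 144 CPM in knockdown tumours, against 130 to 175 CPM in control tumours, and singly 3 of the 8 were lower and 0 higher. Over 4 plasma cell markers, of cells with heavy secretory traffic, the sum was 39.9 to 72.1 CPM in knockdown tumours and 63.1 to 89.7 CPM in control tumours. What the mitochondrial share and host cell RNA contribute to the tumour differences was not tested. In the cultured cells 12 of the 15 leukocyte markers, Ptprc among them, and 5 of the 8 endothelial markers were listed at 0. The fibroblast and mural markers summed to 1030 to 1250 CPM in knockdown cells and 1070 to 1800 CPM in control cells. The plasma cell markers summed to 96.8 to 124 CPM in knockdown cells and 97.2 to 106 CPM in control cells, above both tumour groups. Sums over those lists are therefore not a measure of host cells alone. The epithelial genes Epcam and Cdh1 were listed at 0 in the cultured cells as well, so the epithelial origin of the line could not be checked from them.

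Measured per length of transcript, the coat subunits spanned a wide range in all 4 groups. The scale here is CPM per kilobase of 1 coding transcript per gene, with the SD over libraries. Among COPII genes, the GTPase gene Sar1a had 78.99 ± 5.07 in knockdown cells, 86.8 ± 2.24 in control cells, 67.2 ± 4.30 in knockdown tumours and 82.8 ± 5.52 in control tumours. The cage gene Sec13, whose product is also a nucleoporin, had 74.9 ± 2.59 in knockdown cells, 92.02 ± 4.16 in control cells, 79.8 ± 6.77 in knockdown tumours and 115 ± 13.1 in control tumours. Sar1a led in knockdown cells and Sec13 in the other groups. Sec24a was the lowest coat gene everywhere, at 7.26 ± 1.88 in knockdown cells, 10.3 ± 0.593 in control cells, 2.67 ± 0.237 in knockdown tumours and 2.32 ± 0.441 in control tumours. Among COPI genes Copa, the alpha subunit, led in cultured cells, with 100.2 ± 7.78 in knockdown and 131 ± 4.28 in control cells, while Copz1, the zeta subunit, led in tumours, with 98.9 ± 16.9 in knockdown and 129.7 ± 18.8 in control tumours. The second gamma subunit gene Copg2 was far below Copg1 on this scale, at 17.4 ± 1.08 against 65.5 ± 2.05 CPM per kilobase in control cells.

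**Figure D1:**
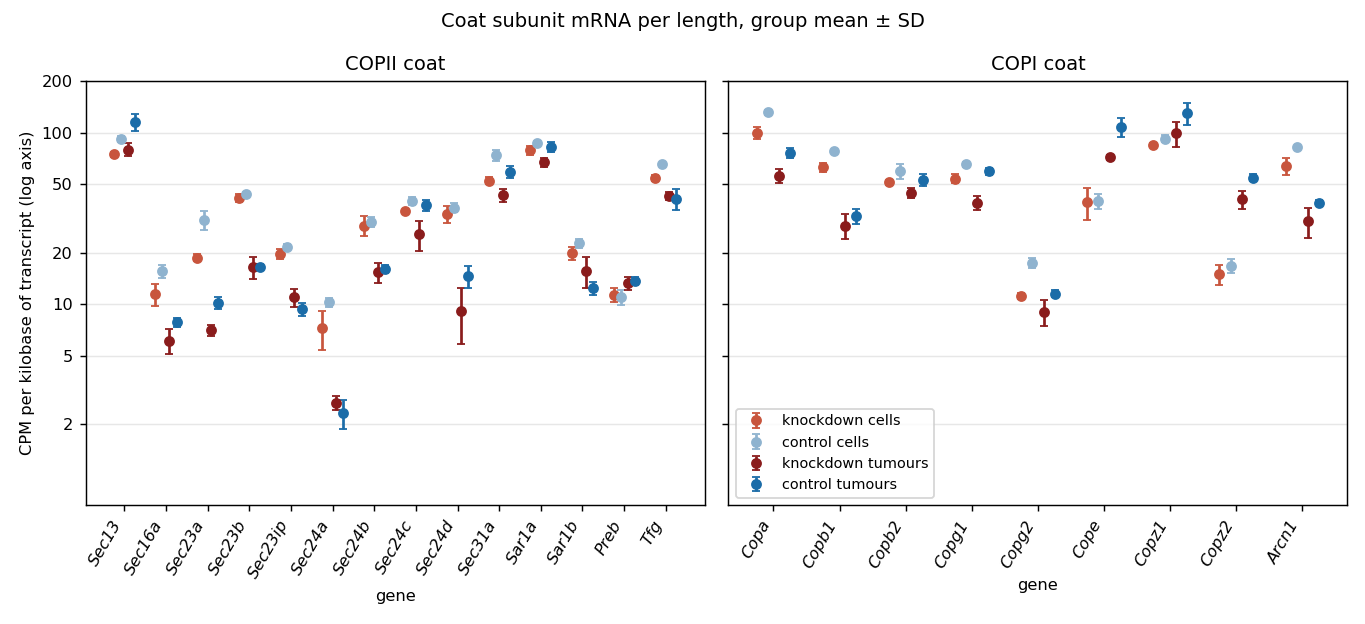
CPM per kilobase of transcript on a log axis for each gene of the COPII coat (left) and COPI coat (right), as group means with SD bars over 3 cell libraries or 5 tumour libraries. Knockdown cells (light red) lie below control cells (light blue) for Sec23a, Copa and Copg2, and Cope and Copz2 are higher in both tumour groups than in both cell groups.

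In knockdown cells the traffic genes that moved all fell. Of the 47 members, 14 were lower and 0 higher at an adjusted p under 0.05 by edgeR's quasi-likelihood test with Benjamini-Hochberg adjustment over all 11905 genes tested, and 33 did not pass. DESeq2 and limma voom also called 0 members higher, and 1 member, Lman2, was higher at an unadjusted p under 0.05. Over all genes tested, 5.57% were called lower and 3.76% higher (9.33% together). The members' median log2 fold change was -0.18, and that of all genes tested was 0.01. The share called lower was 4 of 14 COPII genes, 4 of 9 COPI genes, 0 of 4 ARF genes, 4 of 13 cargo receptor genes and 2 of 7 SNARE and tether genes. In 25 members every knockdown library was below every control library, against 15.8% of all genes. In another 4 every knockdown library was above, and the 2 directions together held 31.8% of all genes. Added over all 47 genes the level was 6823 to 6937 CPM in knockdown cells and 7620 to 7889 CPM in control cells.

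In knockdown tumours more members passed, and in both directions. Of the 47, 27 were lower and 5 higher by the same test over 13997 genes, and 15 did not pass. Over all genes tested, 18.3% were called lower and 20.1% higher (38.4% together). The members' median was -0.29, and that of all genes 0.02. Lower were 7 of 14 COPII genes, 8 of 9 COPI genes, 2 of 4 ARF genes, 6 of 13 cargo receptor genes and 4 of 7 SNARE and tether genes, while the 5 higher ones were Sar1b and the p24 family genes Tmed2, Tmed5, Tmed7 and Tmed10. The groups did not overlap in 17 members that were lower and 3 that were higher, against 11.3% of all genes in each direction. The summed level was 4976 to 5794 CPM in knockdown tumours and 6353 to 6661 CPM in control tumours. In bulk tumours, fewer cells that express a gene and less RNA of it per cell cannot be told apart.

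**Figure D2:**
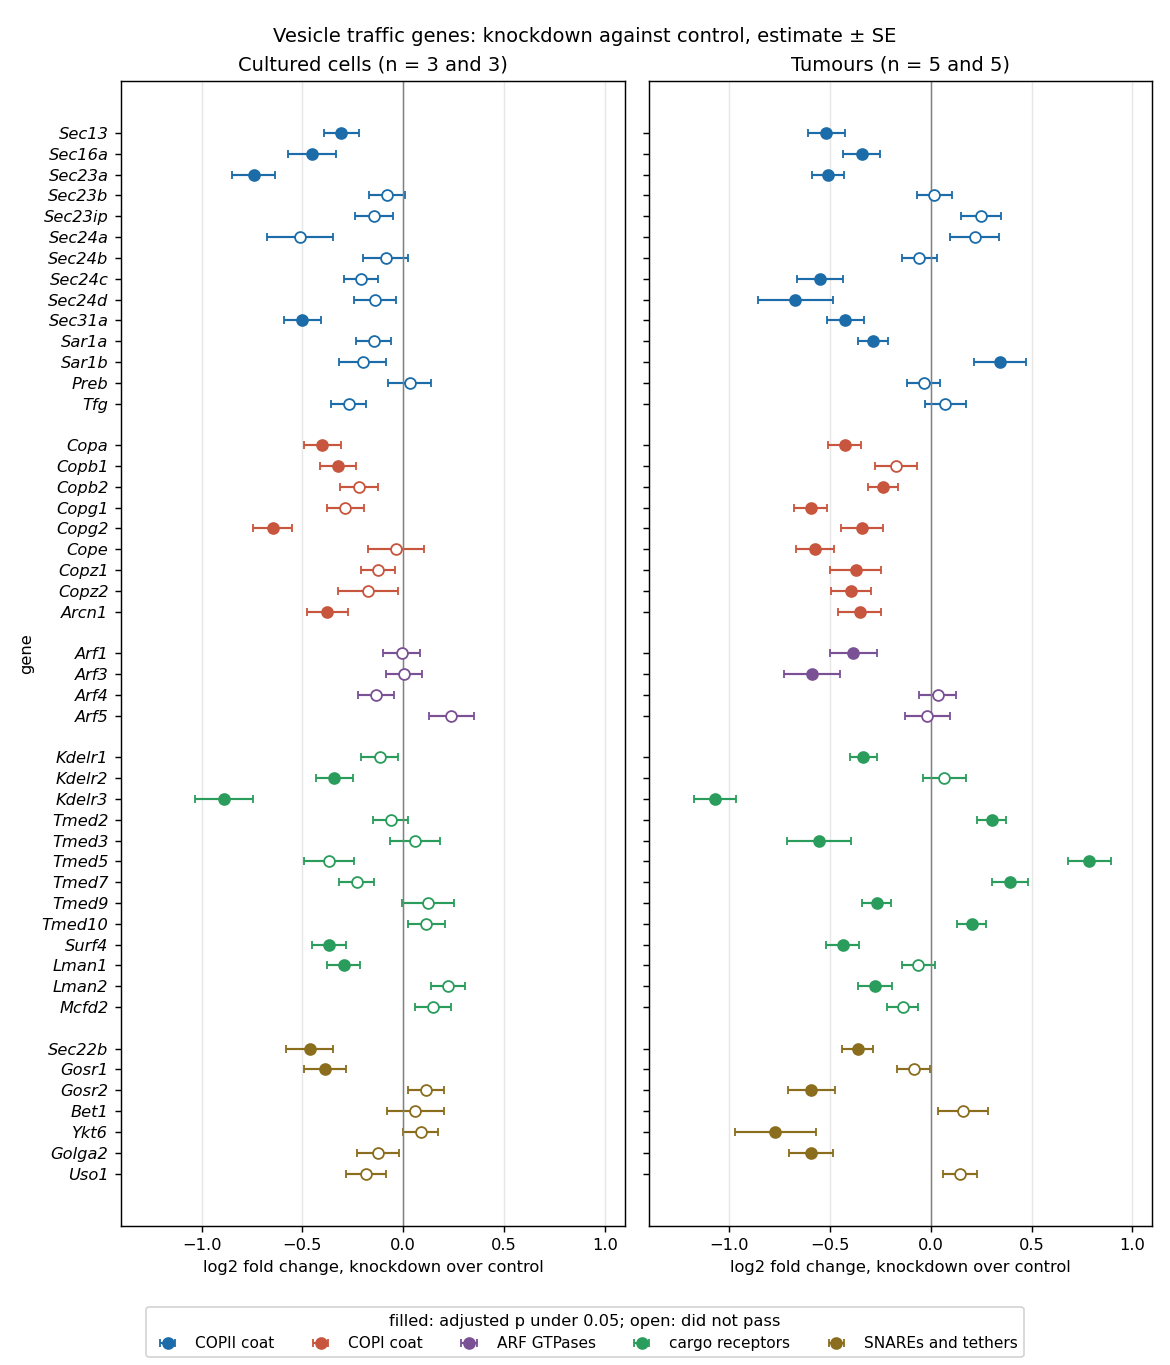
Log2 fold change of each member, knockdown over control, with its SE, in cultured cells (left, n = 3 and 3) and tumours (right, n = 5 and 5), ordered by role. Filled points passed an adjusted p of 0.05 and open points did not; all 14 filled points in cells lie left of 0, and in tumours 27 lie left and 5 right.

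Among COPII genes, Sec23a changed most in cultured cells. Changes in parentheses here and after are log2 fold changes, knockdown over control, with SE and edgeR's adjusted p. Sec23a encodes an inner coat subunit that also activates the GTPase SAR1. Its level was 74.3, 80.6 and 75.4 CPM in the 3 knockdown cell libraries, against 143, 129 and 110 CPM in the 3 control cell libraries, and no knockdown library reached a control library. The log2 fold change was -0.74 (SE 0.11, adjusted p = 0.00198), a level of 59.8% of control. In tumours Sec23a had 29.3, 28, 27.6, 32.6 and 27.8 CPM in knockdown libraries, against 37.1, 44.2, 45.7, 40.9 and 40.9 CPM in control libraries, again without overlap, and it fell to 70.3% of control (-0.51, SE 0.08, adjusted p = 5.57e-04). Its paralogue Sec23b did not pass, with 115 ± 6.29 CPM in knockdown and 121 ± 4.34 CPM in control cells (-0.08, adjusted p = 0.593) and 45.8 ± 6.79 CPM in knockdown and 45.6 ± 1.80 CPM in control tumours (0.02, adjusted p = 0.887). As a share of the 2 paralogues' summed level per length, Sec23a took 31.0% ± 0.732 in knockdown cells and 41.4% ± 3.59 in control cells. It took 30.2% ± 1.65 in knockdown tumours and 38.2% ± 1.80 in control tumours.

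The cage and scaffold genes fell as well. Sec31a, the outer cage subunit, had 220, 234 and 213 CPM in knockdown cells, against 323, 328 and 286 CPM in control cells, which gave a change of -0.50 (SE 0.09, adjusted p = 0.00761) on the log2 scale. In tumours it averaged 184 ± 16 CPM in knockdown and 249 ± 20.5 CPM in control libraries (SD, n = 5 each), a change of -0.43 (SE 0.09, adjusted p = 0.00355). Both settings left a gap between the groups. Sec13, its cage partner, fell in cells, where knockdown libraries averaged 101 ± 3.50 CPM and control libraries 125 ± 5.63 CPM (-0.31, SE 0.09, adjusted p = 0.0468). That cell call is a marginal one: it did not pass with library totals or limma voom. Sec13 had 107, 104, 97.7, 122 and 110 CPM in knockdown tumours, against 140, 184, 153, 161 and 142 CPM in control tumours, and its tumour change was -0.52 (SE 0.09, adjusted p = 0.00109). Sec16a, the scaffold of exit sites, had 106, 113 and 84.2 CPM in knockdown cells, against 145, 145 and 123 CPM in control cells, and the lowest control library stood above the highest knockdown library. Its change was -0.45 (SE 0.12, adjusted p = 0.0371) in cells and -0.34 (SE 0.09, adjusted p = 0.0122) in tumours, where the groups overlapped.

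The 4 cargo-binding SEC24 genes did not move together. Sec24c had 141, 115, 88.5, 131 and 94.5 CPM in knockdown tumours, against 174, 146, 179, 169 and 173 CPM in control tumours, with no overlap, and fell by 0.55 (SE 0.11, adjusted p = 0.00293). Knockdown tumour libraries 3 and 5 were its lowest. Sec24d averaged 35.7 ± 12.7 CPM in knockdown and 56.97 ± 8.43 CPM in control tumours and fell with overlap (-0.67, SE 0.18, adjusted p = 0.0128). In cells neither passed, at -0.21 (adjusted p = 0.144) for Sec24c and -0.14 (adjusted p = 0.421) for Sec24d. Sec24a and Sec24b passed in neither setting: Sec24a had log2 fold changes of -0.51 (adjusted p = 0.0722) in cells and 0.22 (adjusted p = 0.173) in tumours, and Sec24b of -0.09 and -0.06.

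Of the GTPase genes that start the coat, Sar1a fell and Sar1b rose in tumours. Sar1a averaged 176 ± 11.2 CPM in knockdown and 216 ± 14.4 CPM in control tumours, a change of -0.29 (SE 0.07, adjusted p = 0.00981) with no overlap, and its change in cells did not pass (-0.15, adjusted p = 0.312). Sar1b, present at a lower level, averaged 18.7 ± 3.82 CPM in knockdown and 14.9 ± 1.25 CPM in control tumours (0.34, SE 0.13, adjusted p = 0.0482), with overlap. The Sar1b call is a marginal one: it did not pass with library totals, with DESeq2's size factors, without a filter or with limma voom. After trends with GC content and transcript length were removed its value was -0.02. Per length, Sar1b made up 18.8% ± 2.91 of the 2 paralogues' level in knockdown tumours and 13.1% ± 1.06 in control tumours. The remaining COPII genes, Sec23ip, a partner of SEC23, Preb, the exchange factor of SAR1, and Tfg, a scaffold at exit sites, passed in neither setting, with log2 fold changes of -0.27 to 0.03 in cells and -0.03 to 0.25 in tumours.

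Of the 7 coatomer subunits, which include paralogues of gamma and zeta, each had at least 1 gene that fell in tumours except beta, whose gene Copb1 was also called there with GC and length trends removed (-0.38, adjusted p = 0.0108). Copa, the alpha subunit, had 448, 463 and 398 CPM in knockdown cells, against 586, 579 and 551 CPM in control cells, and fell by 0.40 (SE 0.09, adjusted p = 0.0217). It had 253, 207, 269, 256 and 234 CPM in knockdown tumours, against 322, 318, 367, 318 and 336 CPM in control tumours, a change of -0.43 (SE 0.08, adjusted p = 0.00207). The groups were apart in both settings. Copg2, the second gamma subunit, had 44.5, 46 and 42.5 CPM in knockdown cells, against 73.2, 69.1 and 64.6 CPM in control cells, the deepest fall of the COPI genes in cells (-0.65, SE 0.10, adjusted p = 0.00238). In tumours it averaged 35.7 ± 6.06 CPM in knockdown and 45.6 ± 2.24 CPM in control libraries (-0.34, SE 0.10, adjusted p = 0.0205), with overlap. Copg1, the main gamma subunit, had 181, 161, 155, 172 and 141 CPM in knockdown tumours, against 227, 254, 258, 248 and 249 CPM in control tumours, and fell by 0.60 (SE 0.08, adjusted p = 2.78e-04). Its change in cells did not pass (-0.29, adjusted p = 0.0692). Copg2 made up 17.2% ± 0.323 of the gamma level per length in knockdown cells and 20.996% ± 0.619 in control cells, and 18.7% ± 1.54 in knockdown tumours and 16.2% ± 1.12 in control tumours, so its mean share was lower with knockdown in cells, without overlap, and higher in tumours, with overlap.

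Copb1, the beta subunit, had 208, 225 and 200 CPM in knockdown cells, against 267, 261 and 260 CPM in control cells (-0.32, SE 0.09, adjusted p = 0.0414), and it did not pass in tumours (-0.17, adjusted p = 0.200). Arcn1, the delta subunit, had 266, 286 and 227 CPM in knockdown cells, against 335, 334 and 337 CPM in control cells, where the control libraries lay close together (-0.38, SE 0.10, adjusted p = 0.0395). In tumours Arcn1 averaged 124 ± 24.2 CPM in knockdown and 159 ± 5.80 CPM in control libraries (-0.35, SE 0.11, adjusted p = 0.0197), with overlap. Cope, the epsilon subunit, had 97.7, 92.6, 92.8, 95.6 and 89.8 CPM in knockdown tumours, against 125, 163, 132, 158 and 127 CPM in control tumours, and fell by 0.58 (SE 0.09, adjusted p = 7.36e-04), while in cells it was near 0 (-0.04, adjusted p = 0.900). The beta-prime subunit gene Copb2 (-0.24, SE 0.08, adjusted p = 0.0254) and the zeta subunit genes Copz1 (-0.37, SE 0.13, adjusted p = 0.0320) and Copz2 (-0.40, SE 0.10, adjusted p = 0.00887) fell in tumours, and the groups overlapped for Copz1. In cells Copb2 had a log2 fold change of -0.22, Copz1 of -0.12 and Copz2 of -0.18, and none of them passed.

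Of the ARF GTPases, which recruit the COPI coat, Arf1 and Arf3 of class I fell in tumours and Arf4 and Arf5 of class II did not pass. Arf1, the most abundant, averaged 352 ± 75.7 CPM in knockdown and 462 ± 22.2 CPM in control tumours (-0.38, SE 0.12, adjusted p = 0.0199). Arf3 averaged 105 ± 23.3 CPM in knockdown and 159 ± 22.02 CPM in control tumours (-0.59, SE 0.14, adjusted p = 0.00556). Both were lowest in knockdown tumour libraries 3 and 5, with 272 and 304 CPM for Arf1, and both overlapped with control. In cells the log2 fold changes of the 4 genes were -0.13 to 0.24, and none passed by edgeR, DESeq2 or limma voom, nor at an unadjusted p under 0.05.

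**Figure D3:**
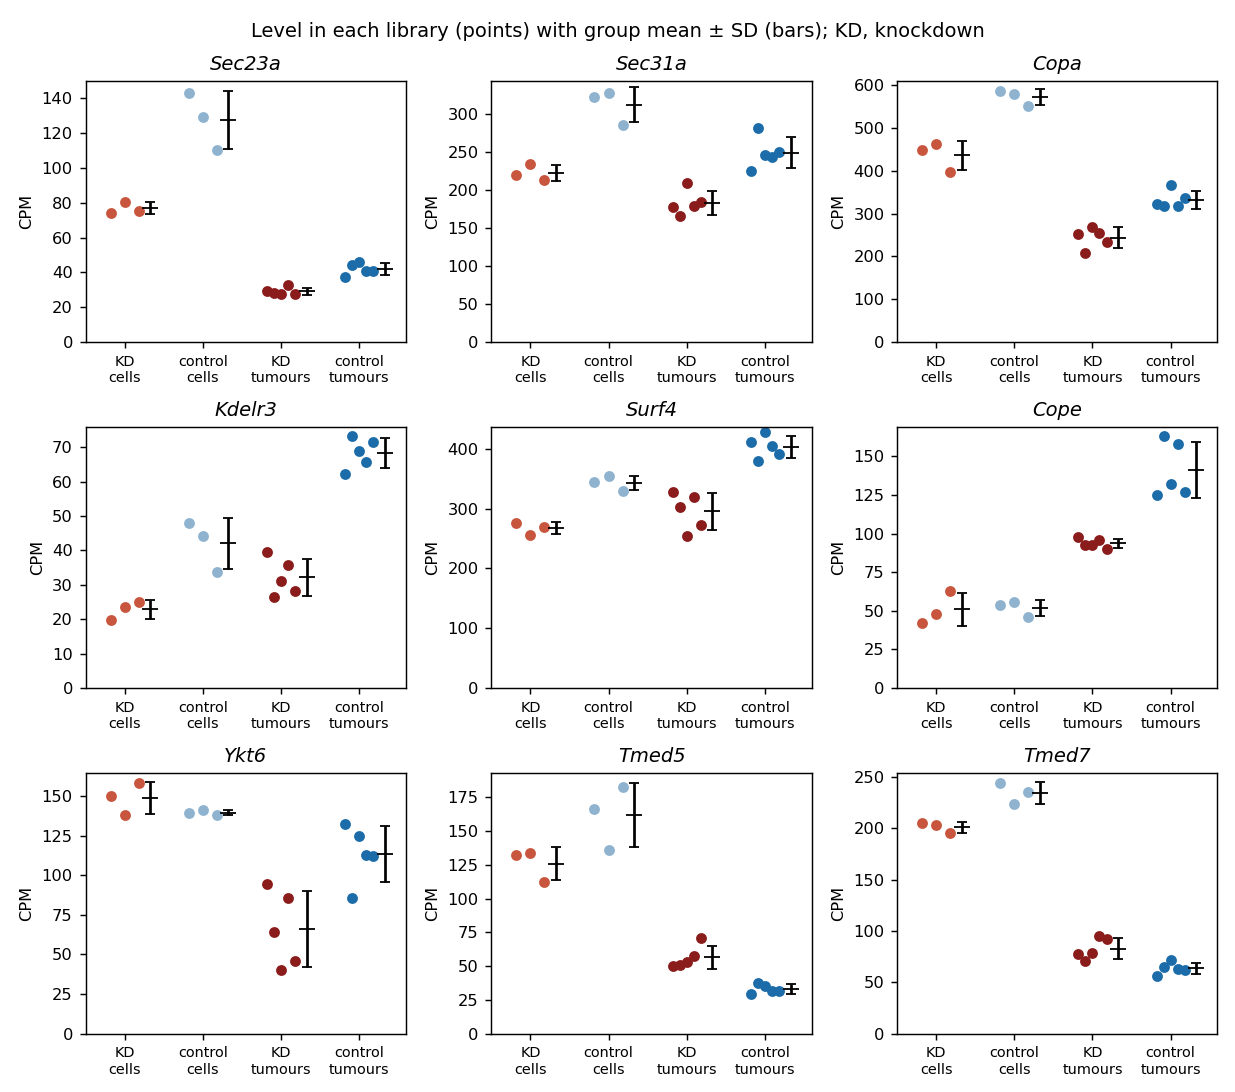
CPM of 9 members in each library (points), with the mean and SD of each group (black), for knockdown cells, control cells, knockdown tumours and control tumours. Sec23a, Sec31a, Copa, Kdelr3 and Surf4 are lower with knockdown in cells and in tumours, Cope and Ykt6 in tumours, and Tmed5 and Tmed7 are higher with knockdown in tumours.

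The KDEL receptors, which return escaped resident proteins to the endoplasmic reticulum, differed from one another. Kdelr3 had 19.8, 23.6 and 25.1 CPM in knockdown cells, against 48.1, 44.2 and 33.8 CPM in control cells, and fell to 53.95% of control (-0.89, SE 0.14, adjusted p = 0.00379). In tumours it had 39.6, 26.6, 31.1, 35.8 and 28.2 CPM in knockdown libraries, against 62.2, 73.3, 69, 65.7 and 71.6 CPM in control libraries, a level of 47.6% of control (-1.07, SE 0.10, adjusted p = 3.65e-05). It had the deepest fall of the 47 members in both settings. Kdelr2 had 186, 179 and 202 CPM in knockdown cells, against 253, 236 and 224 CPM in control cells (-0.34, SE 0.09, adjusted p = 0.0381), and its change in tumours did not pass (0.07, adjusted p = 0.637). Kdelr1 had 102, 106, 101, 104 and 102 CPM in knockdown tumours, against 142, 122, 133, 124 and 134 CPM in control tumours, without overlap (-0.33, SE 0.07, adjusted p = 0.00263), and its change in cells did not pass (-0.12, adjusted p = 0.436). Per length, Kdelr3 made up 9.55% ± 0.802 of the 3 receptors' level in knockdown cells and 13.9% ± 1.58 in control cells, and 11.3% ± 2.18 in knockdown tumours and 19.96% ± 0.562 in control tumours.

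The p24 family genes, whose products gather cargo in both kinds of vesicle, rose and fell in tumours. Tmed5 had 50.2, 51.2, 52.9, 57.7 and 71.2 CPM in knockdown tumours, against 29.3, 37.8, 35.3, 31.5 and 31.7 CPM in control tumours, the highest rise of any member and without overlap (0.79, SE 0.11, adjusted p = 2.74e-04). After trends with GC content and transcript length were removed its rise was 0.21 (SE 0.06, adjusted p = 0.0210), below that of Tmed7 (0.39). Tmed7 averaged 82.7 ± 10.4 CPM in knockdown and 63.5 ± 5.49 CPM in control tumours (0.39, SE 0.09, adjusted p = 0.00472), with overlap. Tmed2 rose by 0.30 (SE 0.07, adjusted p = 0.00678) and Tmed10 by 0.20 (SE 0.07, adjusted p = 0.0387), each without overlap. The Tmed10 call is a marginal one, which held in 2 of 10 fits with 1 library left out, while that of Tmed2 held in all 10. Neither call held with GC and length trends removed. The other two p24 genes fell: Tmed3 averaged 92.4 ± 25.5 CPM in knockdown and 137 ± 12.98 CPM in control tumours (-0.56, SE 0.16, adjusted p = 0.0154) with overlap, and Tmed9 averaged 163 ± 11.99 CPM in knockdown and 199 ± 6.12 CPM in control tumours (-0.27, SE 0.07, adjusted p = 0.0105) without it. Tmed3 was lowest in knockdown tumour libraries 3 and 5, at 62.0 and 69.8 CPM. In cells none of the 6 passed by edgeR or limma voom, and DESeq2 called 1, Tmed5. At an unadjusted p under 0.05 by edgeR 2 were lower, Tmed5 and Tmed7, at -0.37 (adjusted p = 0.0842) and -0.23 (adjusted p = 0.119).

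Surf4, a receptor for soluble cargo, had 276, 256 and 270 CPM in knockdown cells, against 345, 354 and 330 CPM in control cells (-0.37, SE 0.08, adjusted p = 0.0216). It had 328, 302, 254, 319 and 273 CPM in knockdown tumours, against 412, 380, 428, 405 and 391 CPM in control tumours (-0.44, SE 0.08, adjusted p = 0.00157), and the groups did not overlap in either setting. The lectin receptor Lman1, known as ERGIC-53, averaged 149 ± 3.51 CPM in knockdown and 182 ± 3.67 CPM in control cells (-0.30, SE 0.08, adjusted p = 0.0453) and did not pass in tumours (-0.06, adjusted p = 0.565). Mcfd2, the partner of Lman1 in carrying coagulation factors, passed in neither setting (0.15 in cells and -0.14 in tumours). Lman2, a second lectin known as VIP36, fell in tumours, where knockdown libraries averaged 188 ± 21.5 CPM and control libraries 230.2 ± 18.04 CPM (-0.28, SE 0.08, adjusted p = 0.0209), with overlap. In cells it had 253, 252 and 273 CPM in knockdown and 223, 219 and 220 CPM in control libraries, a gap in the other direction that did not pass (0.22, adjusted p = 0.122).

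Among the SNAREs, Sec22b, of the endoplasmic reticulum and its vesicles, had 41.4, 33.3 and 39.8 CPM in knockdown cells, against 46.8, 55.7 and 54.4 CPM in control cells (-0.46, SE 0.12, adjusted p = 0.0293). In tumours it averaged 37.9 ± 3.94 CPM in knockdown and 49.2 ± 2.89 CPM in control libraries, again without overlap (-0.36, SE 0.08, adjusted p = 0.00357). Gosr1, a Golgi SNARE, had 58.2, 49 and 47.3 CPM in knockdown cells, against 68.7, 65.7 and 66.4 CPM in control cells (-0.39, SE 0.10, adjusted p = 0.0396), and did not pass in tumours (-0.09, adjusted p = 0.439). Gosr2 had 112, 90.3, 71.3, 112 and 77.7 CPM in knockdown tumours, against 155, 124, 143, 138 and 143 CPM in control tumours (-0.59, SE 0.12, adjusted p = 0.00199). Ykt6 averaged 66.1 ± 23.8 CPM in knockdown and 114 ± 17.6 CPM in control tumours, with 40.4 and 45.9 CPM in knockdown tumour libraries 3 and 5 (-0.77, SE 0.20, adjusted p = 0.00976), and its groups overlapped. Golga2, the golgin GM130 of the cis-Golgi, had 67.6, 52.4, 49.9, 79.3 and 50.7 CPM in knockdown tumours, against 92.8, 86.6, 93.5, 91.6 and 90.8 CPM in control tumours (-0.59, SE 0.11, adjusted p = 0.00151). In cells Gosr2, Ykt6 and Golga2 did not pass, with log2 fold changes of 0.11, 0.09 and -0.12. The SNARE gene Bet1 and the tether gene Uso1 passed in neither setting, with 0.06 and -0.19 in cells and 0.16 and 0.15 in tumours. With GC and length trends removed, Bet1 was called lower in tumours (-0.35, adjusted p = 0.00605).

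Leaving out a library changed the number of cell calls more than the tumour calls. Without knockdown cell library 1, 2 or 3, the number of members lower in cells was 3, 10 and 12, and without control cell library 1, 2 or 3 it was 3, 5 and 8. The share of all genes called lower in those 6 fits was 1.89%, 7.05%, 5.80%, 1.70%, 2.52% and 4.30%. Sec23a, Copg2 and Kdelr3 were called in all 6, and Gosr1 in 0. In tumours the number lower was 21 to 27 over the 10 fits, beside 13.5% to 20.4% of all genes, and 24 of the 32 calls held in all of them. Without knockdown tumour library 2 or 5, or any 1 of the 5 control libraries, 3 members were called higher, Tmed2, Tmed5 and Tmed7 in each. Of all genes, 15.2% to 19.8% were higher in those fits. Without knockdown tumour libraries 3 and 5, which were left out together after their mitochondrial share was seen, 19 members were lower and 3 higher. Calls over all genes also became fewer in that smaller fit, at 13.1% lower and 13.4% higher. Sec16a, Sec24d, Copb2, Copg2, Copz1, Arcn1, Arf1, Lman2, Sar1b and Tmed10 were then no longer called.

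A set of 10 members was lower in both settings: Sec13, Sec16a, Sec23a, Sec31a, Copa, Copg2, Arcn1, Kdelr3, Surf4 and Sec22b. They were 71.4% of the members lower in cells and 37.0% of those lower in tumours. Among all 11762 genes tested in both comparisons, 208 were lower in both, 31.5% of those lower in cells and 8.87% of those lower in tumours. The overlaps start from unlike shares: 57.4% of members and 18.3% of all genes were lower in tumours, and 29.8% and 5.57% in cells. The larger overlap of the members is therefore not a sign of closer agreement between the settings. With GC and length trends removed, 7 of the 10 remained lower in both, while Sec16a (-0.13) and Sec31a (-0.27) lost the tumour call and Sec22b (-0.35, adjusted p = 0.0512) the cell call. The cell calls of Sec23a, Copg2 and Kdelr3 held in all 6 fits with 1 cell library left out. That of Sec31a held in 4, those of Sec16a, Copa and Surf4 in 3, that of Arcn1 in 2, and those of Sec13 and Sec22b in 1. Another 4 members were called lower in cells and not in tumours, 17 were called lower in tumours and not in cells, and 11 passed in neither. A call in 1 setting alone does not show that the settings differ, so the difference between them was tested in 1 fit over all 16 RNA libraries.

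In that fit, 12 members had a tumour change that differed from the cell change at an adjusted p under 0.05, 7 higher and 5 lower. Of 12581 genes with this test, 12.7% had a higher value in tumours and 9.95% a lower one (22.7% together). The members' shares, 14.9% higher and 10.6% lower, were near these. The tumour change minus the cell change, on the log2 scale, was 1.18 (SE 0.18, adjusted p = 3.00e-04) for Tmed5, 0.75 (SE 0.22, adjusted p = 0.0198) for Sec24a, 0.65 (SE 0.13, adjusted p = 0.00301) for Tmed7 and 0.57 (SE 0.19, adjusted p = 0.0418) for Sar1b. It was 0.43 (SE 0.15, adjusted p = 0.0468) for Kdelr2, 0.41 (SE 0.15, adjusted p = 0.0485) for Sec23ip and 0.38 (SE 0.11, adjusted p = 0.0220) for Tmed2. Those 7 genes had more positive values in tumours than in cells. It was -0.84 (SE 0.28, adjusted p = 0.0391) for Ykt6, -0.69 (SE 0.17, adjusted p = 0.00848) for Gosr2, -0.57 (SE 0.20, adjusted p = 0.0434) for Arf3, -0.52 (SE 0.17, adjusted p = 0.0334) for Cope and -0.48 (SE 0.13, adjusted p = 0.0127) for Lman2, whose values were lower in tumours. Of the 10 members lower in both settings, none passed this test, and their values were -0.19 to 0.33. That does not show equal changes in the 2 settings. In simulated counts, with few genes changed and a common dispersion, 4% to 10% of differences of 0.5 were recovered. The data differ from that simulation, and in them Tmed2 was called at 0.38.

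**Figure D4:**
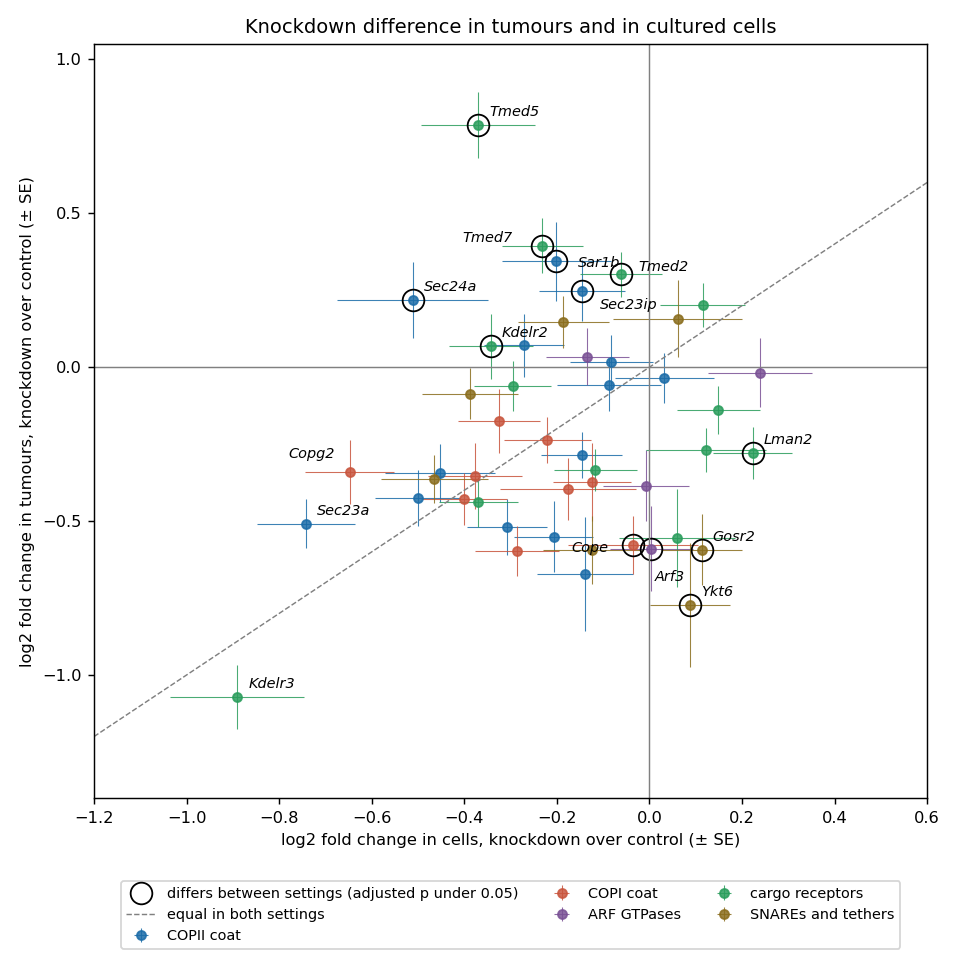
Log2 fold change of each member, knockdown over control, in cultured cells (x axis) and tumours (y axis), with SE bars, coloured by role; the dashed line marks equal change. Ringed points are the 12 members whose change differed between the settings, with Tmed5 at -0.37 in cells and 0.79 in tumours farthest above the line and Ykt6 below it.

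The interaction calls were sensitive to single libraries. Without knockdown cell library 3 the count was 4, and without control cell library 1, 2 or 3 it was 5, 7 and 5. Without knockdown tumour library 5 or control tumour library 4 it was 6, and without control tumour library 5 it was 7. In those fits calls over all genes became fewer as well. They were 5.51% to 8.44% lower and 7.69% to 11.2% higher, beside 9.95% and 12.7% in the full fit. Tmed5, Tmed7, Lman2 and Gosr2 passed in all 16 fits with 1 library left out, and the same 4 were the only members that passed once trends with transcript GC and length had been removed. In that fit the difference was 0.38 for Tmed5, 0.75 for Tmed7, -0.34 for Lman2 and -0.64 for Gosr2, and over all genes 6.82% were higher and 6.16% lower.

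The GC content of the transcripts moved with these changes, over all genes as well as over the members. In cells, the median log2 fold change of all genes ran from -0.13 in the GC-poorest of 5 bins with about equal numbers of genes to 0.14 in the GC-richest, and in tumours from 0.30 to -0.19. Spearman's rho between GC content and log2 fold change was 0.428 over the 47 members and 0.34 over all genes in cells, and -0.538 over members and -0.412 over all genes in tumours, as a description over genes that share the same libraries. Tmed5, the member that rose most in tumours, had the lowest GC content, 35.0%. Within the GC-poorest bin, where 3.96% of all genes were lower in tumours and 45.7% higher, 4 of 11 members were lower and 2 higher. With trends on GC content and transcript length removed, a setting added after the data were seen, 14 members were lower and 1 (Lman2) higher in cells, and 26 lower and 2 (Tmed5 and Tmed7) higher in tumours. Over all genes in that setting, 7.61% were lower and 5.96% higher in cells, and 15.4% lower and 16.3% higher in tumours. Of the calls made without it, 10 of 14 held in cells and 26 of 32 in tumours. Newly called lower were Tfg, Copg1, Copz2 and Tmed7 in cells and Copb1 (-0.38, adjusted p = 0.0108) and Bet1 (-0.35, adjusted p = 0.00605) in tumours. The calls that ended were those of Copb1, Lman1, Sec22b and Gosr1 in cells and of Sec16a, Sec31a, Lman2, Sar1b, Tmed2 and Tmed10 in tumours. The source of the GC trend was not tested.

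**Figure D5:**
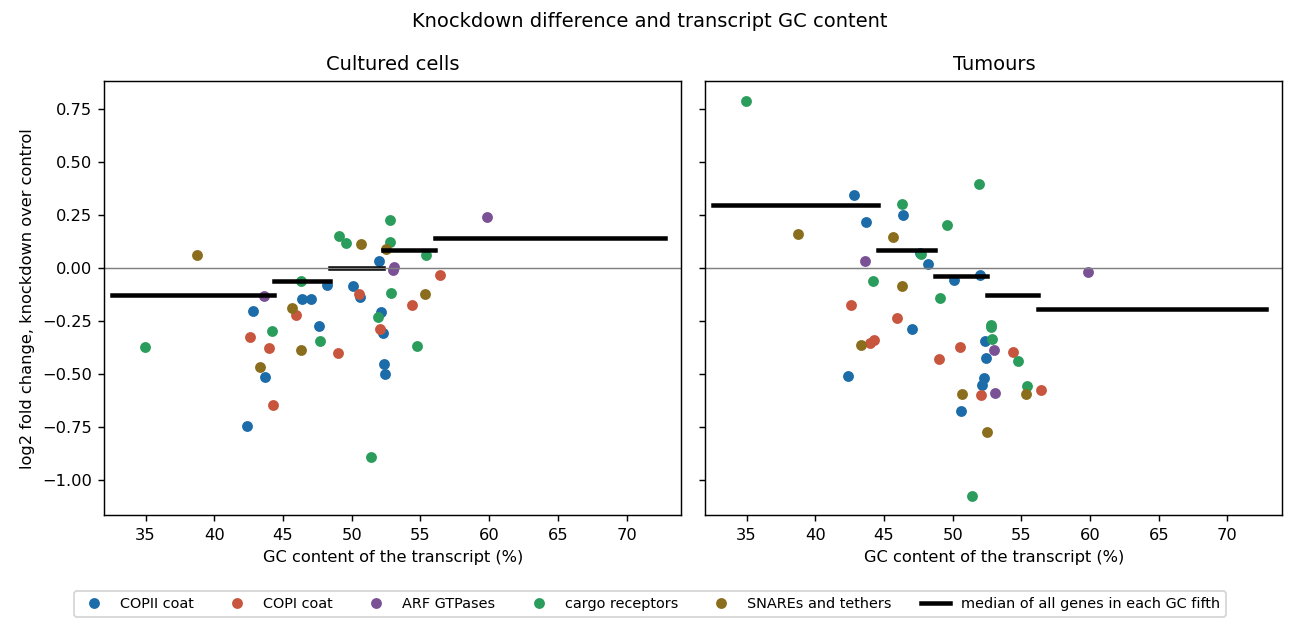
Log2 fold change of each member, knockdown over control, against the GC content of its transcript in percent, in cultured cells (left) and tumours (right). Black bars give the median of all genes tested in each of 5 GC bins with about equal numbers of genes, which run upward in cells (-0.13 to 0.14) and downward in tumours (0.30 to -0.19), and Tmed5, the member poorest in GC at 35.0%, lies highest in tumours.

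The promoters shown above can be set beside these values. Of the 6 members with TGACGTGG, Sec23a, Copb1 and Kdelr3 fell in cells and Sec23a, Sec24d, Copb2, Arf1 and Kdelr3 fell in tumours. Of the 36 members whose window lacks it, 8 fell in cells and 21 in tumours. Over all genes with a window, 9 of 97 with the letters were lower in cells (9.28%), against 5.46% of those without, and 32 of 110 were lower in tumours (29.1%), against 18.6% of those without. For the shorter TGACGT the shares over all genes were close: 5.12% with it and 5.56% without were lower in cells, and 18.5% with it and 18.7% without in tumours. Creb3l2, whose product is a substrate of site-1 protease, averaged 92.7 ± 3.39 CPM in knockdown and 108 ± 24.6 CPM in control cells (-0.23, adjusted p = 0.327). In tumours it averaged 48.7 ± 5.31 CPM in knockdown and 72.6 ± 7.11 CPM in control libraries and fell by 0.56 (SE 0.10, adjusted p = 8.89e-04). Creb3l1 was listed at 0 in every cell library and had 3.24 ± 0.326 CPM in knockdown and 2.93 ± 0.525 CPM in control tumours (0.16, adjusted p = 0.460). Whether these factors bear on the members was not tested.

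A hexamer in the 3′ untranslated region, CTCGGA, is known from earlier results of these data to be frequent among genes that were lower in knockdown cells. It was found in the annotated region of 6 members, Sec24d, Preb, Copz2, Kdelr2, Lman1 and Gosr1. Of these, Kdelr2, Lman1 and Gosr1 fell in cells, against 11 of the 41 members without it. Over all genes 18.3% with the hexamer were lower in cells, against 4.60% without. In tumours 2 of the 6 were lower (Sec24d and Copz2) and 25 of the 41 without it, while over all genes 27.0% with it were lower in tumours, against 18.5% without. Its part in these changes was not tested.

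Other genes of the same pathway were counted from 4 further lists: exit site factors, ARF regulators, other cargo receptors, and other SNAREs and tethers. Of 78 listed genes 74 were tested in cells, where 4 were lower (5.41%) and 2 higher (2.7%), near the shares over all genes of 5.57% and 3.76%. The same number was tested in tumours, where 29 were lower (39.2%) and 7 higher (9.46%), beside 18.3% and 20.1% of all genes. Sec16b, the second exit site scaffold, averaged 11.7 ± 1.08 CPM in knockdown and 20.7 ± 6.05 CPM in control cells (-0.83, SE 0.20, adjusted p = 0.0267). In tumours it averaged 49.96 ± 11.8 CPM in knockdown and 100.5 ± 18.1 CPM in control libraries (-0.99, SE 0.17, adjusted p = 8.38e-04). In cells Arf2, a class I ARF gene, rose (0.50, SE 0.09, adjusted p = 0.00658), while the tethering subunit genes Cog6 (-0.53, SE 0.11, adjusted p = 0.0170) and Zw10 (-0.50, SE 0.11, adjusted p = 0.0198) and the Golgi GTPase gene Rab6a (-0.35, SE 0.09, adjusted p = 0.0334) fell. The other gene that rose was Use1, of a SNARE of the endoplasmic reticulum, named to complete the count. In tumours the ARF exchange factor genes Gbf1 (-0.67, SE 0.13, adjusted p = 0.00173) and Arfgef2 (-0.33, SE 0.08, adjusted p = 0.00795) and Arfgap1, which activates GTP hydrolysis by ARF1 (-0.46, SE 0.07, adjusted p = 4.12e-04), fell. So did Yif1a (-0.75, SE 0.12, adjusted p = 6.80e-04) and Ergic3 (-0.43, SE 0.07, adjusted p = 1.00e-03), of membrane proteins that cycle between the organelles, and Bcap29, of an endoplasmic reticulum membrane protein, rose (0.67, SE 0.11, adjusted p = 7.90e-04). Among exit site factors Tbc1d20 (-0.41, SE 0.08, adjusted p = 0.00188) and Pef1 (-0.25, SE 0.08, adjusted p = 0.0240) fell, and among SNAREs and tethers Cog7 (-0.61, SE 0.11, adjusted p = 0.00115), Stx5a (-0.50, SE 0.09, adjusted p = 0.00139) and Golga5 (-0.39, SE 0.08, adjusted p = 0.00245) fell. Of 16 genes of the clathrin coat and its adaptors, which serve later steps of traffic, 0 passed in cells by edgeR (5 were lower and 2 higher at an unadjusted p under 0.05, and DESeq2 called 2 lower, Ap3b1 and Cltc), and 10 were lower and 2 higher in tumours, beside 18.3% and 20.1% of all genes. Among them were the AP-3 adaptor genes Ap3d1 (-0.47, SE 0.07, adjusted p = 4.46e-04) and Ap3b1 (-0.35, SE 0.07, adjusted p = 0.00217), which fell, and Ap3s1 (0.61, SE 0.11, adjusted p = 0.00107) and Ap3m1, which rose.

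Levels also differed between control tumours and control cells, in which culture, host cells and depth cannot be told apart. Of the 47 members, 21 were lower (44.7%) and 15 higher (31.9%) in control tumours, with 38.4% of all 12410 genes lower and 40.7% higher (79.1% together). Most genes of the table thus differed in this comparison, and a call in it does not set the members apart. Tmed5 averaged 33.1 ± 3.39 CPM in control tumours and 162 ± 24.04 CPM in control cells (-2.18, SE 0.10, adjusted p = 4.57e-11), and Tmed7 averaged 63.5 ± 5.49 CPM in control tumours and 234 ± 10.7 CPM in control cells (-1.77). Sec24a (-2.04), Sec23a (-1.50), Sec23b (-1.30), Copb1 (-1.16) and Arcn1 (-0.96) were among the genes lower in control tumours. Copz2 averaged 50.8 ± 2.48 CPM in control tumours and 15.6 ± 1.49 CPM in control cells (1.81), and Tmed3 (1.65), Cope (1.55), Tmed9 (1.29) and Kdelr3 (0.81) were higher there as well. Once the GC and length trends were removed, 8 of these 36 members changed sign and 21 others moved toward 0 by over 1.5 times. The value of Arcn1 was then -0.085 and no longer called, and it was -0.62 for Tmed5, -0.89 for Sec24a, -0.48 for Sec23a, -0.26 for Copb1, 0.67 for Copz2 and 0.49 for Cope.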

How the data were processed

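The 47 genes and all lists were chosen with earlier results of these data known. The authors deposited whole-number read counts per gene symbol, not normalised, in 1 table of 16 RNA libraries. Per the labels' protocols, RNA was extracted with Trizol and mRNA was captured on beads and made into libraries with a VAHTS kit. The submitters' processing notes name STAR 2.7.1a, HTSeq 0.13.5, cutadapt 1.18, SAMtools 1.3.1, FastQC 0.11.9 and Cufflinks 0.17.3, and the human build hg38. The symbols are mouse ones, of which 95.9% are in GENCODE M21, so the alignment build and use of strand are not given in the sources used here, and reads of overlapping genes or close paralogues cannot be told apart.

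The counts were tested with edgeR 4.0.16 in R 4.3.3 (TMM, filterByExpr, robust quasi-likelihood fits, two-sided, Benjamini-Hochberg over all genes tested, threshold 0.05), on the cell or tumour libraries alone, with 1 fit of all 16 for the interaction and of the control libraries for tumours against cells. SEs are the log2 fold change over the root of F. CPM are counts divided by the library total, times 1000000, and lengths, GC content and 3′ untranslated regions come from 1 coding transcript per gene in GENCODE M21 (GRCm38). On counts simulated with a 2-fold change, 100% of changed genes were recovered in the cell and the tumour comparison, and for changes of 0.5 on the log2 scale 40.0% to 48.0% were. In the interaction these were 84.0% to 86.0% and 4% to 10%. The simulation changed few genes and gave all genes a common dispersion, so its shares need not hold for the members. Replicates of a group differed by a chi-square of at least 5.87 per degree of freedom, so no library was a copy of another's reads. This value cannot exclude separate libraries made from 1 sample, because those can scatter as well.

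Members past the threshold are named. In the cell and tumour comparisons the up to 12 with the smallest p and no overlap are given by library, and 14 members whatever their result. From each further list, up to 3 genes with the smallest p are named. Alternatives were DESeq2 1.42.0 size factors and test, library totals, limma 3.58.1 voom, no filter or a stricter one (1 CPM and 10 counts), the replicate number as a block, scaling on genes tested in cells, each library left out and, added after the data were seen, a loess correction for GC content and length (span 0.3) and the tumours without 2 knockdown libraries. The 2 screen libraries were not used.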

Additional observations from a re-analysis of the deposited data

Results flagged for a closer look

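In the 94 combinations of a member and a tumour group of 5 libraries, 1 library stood far from the others of its group by Dixon's criterion at the 95% level, by which chance alone marks about 5% of groups. Tmed9, of the p24 family, had 188 CPM in control tumour library 5, while the other 4 control tumour libraries had 199 to 203 CPM.

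The other results singled out are the 12 members whose change in tumours differed from that in cells by the test of the difference itself. Their number is near the share over all genes: 14.9% of members were higher and 10.6% lower, beside 12.7% and 9.95% of all genes. The tumour change minus the cell change was higher for Tmed5 (1.18), Sec24a (0.75), Tmed7 (0.65), Sar1b (0.57), Kdelr2 (0.43), Sec23ip (0.41) and Tmed2 (0.38). It was lower for Ykt6 (-0.84), Gosr2 (-0.69), Arf3 (-0.57), Cope (-0.52) and Lman2 (-0.48). Transcript GC content moved with this difference, with a Spearman's rho of -0.735 over the 47 members and -0.55 over all genes, and its part in the result was not tested. With GC and length trends removed the value of Tmed5 was 0.38.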

How the results depend on the processing

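Under DESeq2's size factors and test, library totals, limma voom and either filter, the counts of members lower or higher in cells and tumours and differing between the settings stayed within 1.5 times the reported ones. With the replicate block, 5 members were lower in cells, and 26 were lower and 3 higher in tumours. Over all genes with the block, 2.86% were lower in cells, and 16.6% were lower and 17.3% higher in tumours. Deviations of same-numbered libraries from their group means had correlations of -0.189 to 0.0515 in cells and -0.203 to 0.158 in tumours. The own number was the best match in 1 of 3 cell pairs and 1 of 5 tumour pairs. So few libraries cannot exclude a pairing by number. With GC and length trends removed, 1 member was higher in cells, 2 were higher in tumours and 4 differed between the settings. The shares of all genes higher were then 5.96% in cells and 16.3% in tumours. Without knockdown tumour libraries 3 and 5, 3 were higher in tumours, beside 13.4% of all genes. With each library left out in turn, 3 to 12 members were lower and 0 higher in cells, 21 to 27 lower and 3 to 6 higher in tumours, 4 to 15 differed between the settings, and 35 to 39 differed between control tumours and control cells.

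With GC and length trends removed, the tumour change was -0.013 for Sec23b, -0.020 for Sar1b and -0.037 for Kdelr2. With single tumour libraries left out, that of Sec23b was -0.057 to 0.053, below 0 without knockdown library 1 (-0.0073) or 4, and that of Kdelr2 -0.034 without libraries 3 and 5. In control tumours against control cells the corrected values were -0.20 for Sec13, 0.35 for Copg2, 0.13 for Arf4, -0.59 for Arf5, 0.11 for Tmed2, -0.057 for Surf4, 0.26 for Lman1 and 0.29 for Gosr1, each with its sign turned. The cause was not tested. Without scaling to length, the Sec23a share was 39.9% in knockdown cells and 51.1% in control cells, and 39.0% in knockdown tumours and 47.7% in control tumours. Intervals of levels rest on 3 or 5 libraries, and changes near 0.5 on the log2 scale were often missed in simulated counts.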
